A study of Mus musculus with 8 samples.

Results

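The genes described here encode guidance molecules that cells use to sense their neighbours, namely the Eph receptors with their ephrin ligands, and the semaphorins with their plexin and neuropilin receptors. They were taken by symbol, as every gene named as an EphA or EphB receptor, an ephrin-A or ephrin-B, a semaphorin of class 3 to 7, a plexin A to D, or neuropilin 1 or 2. This gave 54 entries with 53 symbols among the 38991 genes in the series, because Efna5 is listed under 2 Ensembl identifiers. The rule uses symbols and no FPKM value, but the genes were chosen with earlier results of these data known. Of the 54 entries, 34 had an FPKM (fragments counted on a gene, scaled to transcript length and to library size) of at least 1 in at least 2 cultures and were tested, out of 12927 genes that passed the same filter. The other 20 entries were not tested and are given by their levels.

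The RNA came from Rex1GFPd2 cells, called RGd2 in the methods, a mouse embryonic stem cell (ESC) line of strain 129 that carries a short-lived GFP reporter of the naive pluripotency gene Rex1, and all 8 cultures were of this single line. After derivation the line spent 6 passages in 2i. It was then carried for 5 more in the medium under test, based on N2B27 over gelatin, and was used at passage 11 with a split every 3 days. The 4 media combined the cytokine LIF (leukaemia inhibitory factor) with CH (CHIR99021 at 3 µM, a GSK3 inhibitor) and PD (PD0325901 at 1 µM, a MEK inhibitor). 2i+LIF held all 3 additives. 2i held CH and PD without LIF, LIF+PD lacked CH, and CH+LIF lacked PD, so that each comparison with 2i+LIF asks what changed when 1 additive was left out. Each medium had 2 cultures. The labels number them as replicates without saying how they were kept apart, so p-values measure only the spread between these samples, which may be technical.

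Eph receptors are receptor tyrosine kinases on the cell surface, and ephrins are their membrane-bound ligands, with ephrin-A anchored by a lipid and ephrin-B crossing the membrane. When cells touch, both sides can signal, which sorts cell populations apart, sharpens tissue boundaries and steers axons and growing vessels. Semaphorins are secreted or membrane-bound cues that bind plexins, whose inner part acts on small GTPases and the cytoskeleton, and class 3 semaphorins mostly need a neuropilin as co-receptor.

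The deposited values hold no read counts. The ratio of the smallest FPKM values gave each culture's depth relative to replicate 1 of 2i+LIF, and it ran from 0.499 in replicate 1 of 2i to 1.18 in replicate 2 of CH+LIF, so that low values in replicate 1 of 2i rest on the fewest reads. Readouts of the 3 pathways were checked against the labels. Socs3, a LIF target, fell in 2i, Axin2, a target of the pathway that CH activates, fell in LIF+PD, and Dusp6 and Spry4, targets of the pathway that PD blocks, rose in CH+LIF. Spry4 was also lower in 2i, with a change of -0.83 (limma, adjusted p = 0.0428), where PD was present. All 8 pluripotency markers measured were at an FPKM of 47.7 or more in every culture. Neuronal Neurog2 stayed below 0.05, fibroblast Col3a1 was at 0 in every culture, and endothelial Cdh5 and blood Ptprc stayed below 0.03. Other markers of the same lists were higher. Among neural markers Pax6 reached 11.3, Nes 7.67, Map2 4.6 and Sox1 1.83. Among fibroblast markers Thy1 reached 3.44, Col1a1 1.15, Pdgfrb 1.09 and Col1a2 0.24, and endothelial Tek and Kdr reached 7.68 and 1.41.

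Markers of other cell states did move between the media. The summed FPKM of 5 neural markers was 6.53 to 7.56 in 2i+LIF, 11.3 to 15.7 in 2i, 23.0 to 24.3 in LIF+PD and 6.59 to 7.44 in CH+LIF. That of 7 mesendoderm and endoderm markers was 7.48 to 8.48, 13.2 to 23.3, 3.69 to 4.59 and 28.9 to 47.9 in the same order of media. That of 4 markers of primed or formative epiblast was 35.7 to 38.0, 56.5 to 84.0, 96.2 to 104 and 69.1 to 71.9. Trophectoderm markers summed to 28.2 to 28.5, 17.7 to 24.6, 30.9 to 39.7 and 17.2 to 22.5, fibroblast markers to 1.23 to 1.71, 2.25 to 4.99, 2.31 to 3.22 and 3.64 to 4.6, and endothelial and blood markers to 2.17 to 3.17, 1.39 to 1.42, 8.52 to 9.14 and 1.97 to 2.48. Sums can hide opposite changes. The trophectoderm marker Cdx2 was at 10.2 and 7.91 in 2i+LIF and at 0.0433 and 0.096 in LIF+PD. Gata3, of the same list, was at 2.1 and 0.462 in 2i+LIF and at 14.4 and 18.45 in LIF+PD. Among the 8 pluripotency markers, 4 fell in 2i (Klf4, Esrrb, Tfcp2l1 and Tdgf1), 3 fell and Zfp42 rose in LIF+PD, and Nanog and Sox2 fell in CH+LIF. Their part in the results that follow was not tested. In bulk cultures, fewer cells that express a gene and less RNA per cell cannot be told apart.

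The stretches of 250 bases before the transcription start are shown for the 4 members with the largest changes against 2i+LIF on the log2(FPKM + 1) scale, since these are the genes on which the comparisons below turn. They come from RefSeq (GRCm38.p6) and are written 5′ to 3′ on the gene's own strand, with capitals for the bases of a GC box (GGGCGG) or of the TCF/LEF core (CTTTGA), searched on both strands.
Epha1, chr6:42373269-42373518, minus strand: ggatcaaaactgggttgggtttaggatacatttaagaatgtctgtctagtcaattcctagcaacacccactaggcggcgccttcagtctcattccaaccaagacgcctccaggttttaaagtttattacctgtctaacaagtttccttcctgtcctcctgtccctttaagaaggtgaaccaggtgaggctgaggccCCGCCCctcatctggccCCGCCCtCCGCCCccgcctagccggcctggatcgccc
Ephb3, chr16:21204545-21204794, plus strand: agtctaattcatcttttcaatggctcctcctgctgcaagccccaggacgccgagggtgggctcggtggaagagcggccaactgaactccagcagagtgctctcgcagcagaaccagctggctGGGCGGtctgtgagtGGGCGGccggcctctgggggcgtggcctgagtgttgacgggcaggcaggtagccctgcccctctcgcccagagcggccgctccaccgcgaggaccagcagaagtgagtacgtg
Efnb2, chr8:8661243-8661492, minus strand: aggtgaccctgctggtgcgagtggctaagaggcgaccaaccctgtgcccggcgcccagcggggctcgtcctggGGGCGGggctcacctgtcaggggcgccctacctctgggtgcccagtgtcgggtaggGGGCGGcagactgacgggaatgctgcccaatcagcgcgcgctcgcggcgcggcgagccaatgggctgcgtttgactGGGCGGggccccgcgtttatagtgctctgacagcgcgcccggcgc
Nrp2, chr1:62703067-62703316, plus strand: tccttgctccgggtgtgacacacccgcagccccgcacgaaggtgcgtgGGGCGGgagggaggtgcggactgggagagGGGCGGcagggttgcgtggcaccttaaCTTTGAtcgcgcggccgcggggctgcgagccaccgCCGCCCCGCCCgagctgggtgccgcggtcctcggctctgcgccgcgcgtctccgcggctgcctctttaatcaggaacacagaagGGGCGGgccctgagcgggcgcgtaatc

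The 4 windows differ in base composition. G and C made up 54.4% of the Epha1 window, 65.6% of that of Ephb3, 72% of that of Efnb2 and 72.4% of that of Nrp2. Each held at least 2 GC boxes, and Nrp2 held 5, of which 2 overlap by 1 base, together with the TCF/LEF core at positions -146 to -141 from the start. RefSeq windows were found for 47 of the 53 symbols, 61 windows in all. The GC box was in 75.4% of these 61 windows and in 32.7% of 32851 windows of all genes. The TCF/LEF core was in 3 member windows (4.92%, those of Epha2, Nrp2 and Sema3e) against 13.8% of all windows. The STAT site TTCNNNGAA was in 2 member windows against 7.02% of all, the AP-1 site TGANTCA in 3 against 6.75%, and the ETS core CCGGAA in 6 against 12%. The windows of all genes were not matched to those of the members in base composition, and its part in these shares was not tested. Genes with several starts count more than once. These are matches of letters in a fixed window, not sites shown to be bound.

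Levels differed widely between the families. Summed over all members, FPKM was 316 and 341 in the 2 cultures in 2i+LIF, 270.3 and 259 in 2i, 295 and 284 in LIF+PD, and 253 and 281 in CH+LIF (here and below, values of replicate 1 come first). The Eph receptors summed to 79.1 to 118, the semaphorins to 68.3 to 96.3, the plexins to 45.5 to 70.7 and the ephrins to 30.2 to 54.0 across the 8 cultures. A few genes made up most of each sum. Epha2 and Ephb4 together led the Eph receptors in every culture, Efna3 and Efna4 the ephrins, Sema4b the semaphorins with 41.6% to 58.5% of their sum, and Plxnb2 and Plxna1 the plexins. Of the 34 tested members, 13 had a mean FPKM of at least 10 in at least 1 medium, and 6 were at 10 or more in every culture.

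**Figure D1:**
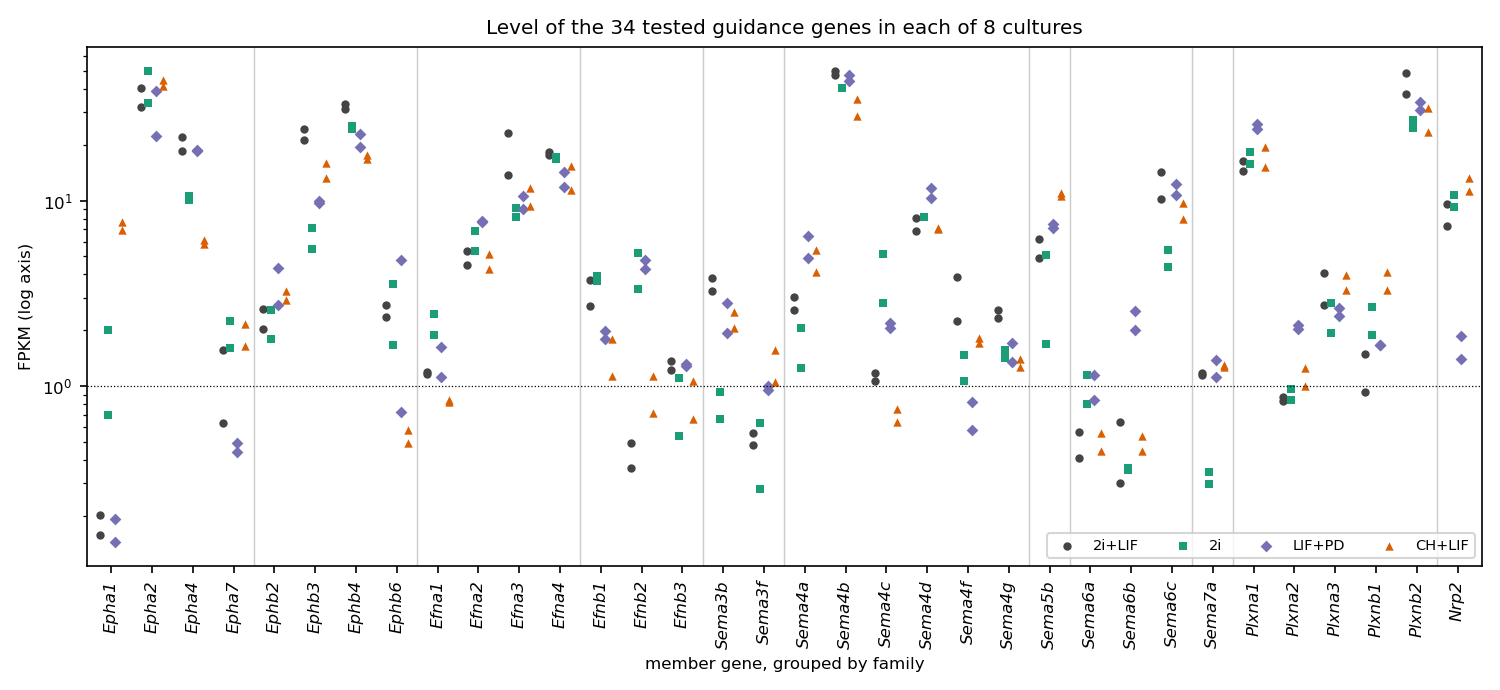
FPKM (log axis) of the 34 tested guidance genes in each of the 8 cultures, grouped by family and marked by medium, with a dotted line at the filter level of 1. Epha1 stands apart in CH+LIF at about 7 with values below 0.3 in 2i+LIF and LIF+PD, and Nrp2 is lowest in LIF+PD.

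Among the EphA receptors, Epha1, a receptor for ephrin-A ligands, had the largest change of the tested members. Its FPKM was 0.203 and 0.159 in 2i+LIF, 0.698 and 2.01 in 2i, 0.145 and 0.193 in LIF+PD, and 6.97 and 7.64 in CH+LIF. Only the CH+LIF cultures were above 5, and the 2i cultures lay between them and the other media without overlap. The mean in CH+LIF was 40.4-fold that in 2i+LIF, with a change of 2.81 ± 0.26 (SE) on the log2(FPKM + 1) scale (limma, Benjamini-Hochberg adjusted p = 0.000991), and on this scale low genes are understated. The ratio divides by low values and is uncertain. The deposited bounds in 2i+LIF were 0.058 and 0.377 in replicate 1 and 0 and 0.318 in replicate 2. Against 2i the change in CH+LIF was 1.88 (adjusted p = 0.00342) and against LIF+PD it was 2.83 (adjusted p = 0.000446). In 2i Epha1 also passed the test against 2i+LIF, with a change of 0.94 (adjusted p = 0.0492), but its 2 cultures there differed widely, and that call was lost without any culture other than replicate 1 of 2i (adjusted p 0.0756 to 0.167). Epha1 (chromosome 6, 42358487 to 42373268, mm10) shares 6.01% of its exon bases with Zyx on the opposite strand, and the methods state strand-specific counting for gene counts, while it is not given in the sources used here whether the FPKM values were made that way. Zyx, which encodes a focal adhesion protein, was at 4.04 and 5.18 in 2i+LIF, 13.5 and 14.8 in 2i, 13.9 and 22.1 in LIF+PD, and 23.4 and 30.7 in CH+LIF. Zyx rose in all 3 media against 2i+LIF, with changes of 1.44 in 2i, 1.74 in LIF+PD and 2.32 in CH+LIF (adjusted p = 0.00619, 0.00229 and 0.00115), whereas Epha1 had a change of -0.01 in LIF+PD (adjusted p = 0.977). The part of the overlap in the Epha1 values was not tested.

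Epha4, a receptor that binds both ephrin classes and guides motor axons, moved the other way. Its FPKM was 18.6 and 22 in 2i+LIF, 10.1 and 10.6 in 2i, 18.6 and 18.5 in LIF+PD, and 5.85 and 6.14 in CH+LIF. The cultures with CH and without either LIF or PD were the low ones, and those in LIF+PD overlapped with 2i+LIF. Epha4 fell by 1.60 ± 0.11 (SE) on the log2 scale in CH+LIF (adjusted p = 0.000364) and by 0.90 ± 0.11 in 2i (adjusted p = 0.00222). In LIF+PD the change was -0.12 ± 0.11 (adjusted p = 0.479). CH+LIF was below 2i as well, with a change of -0.70 (adjusted p = 0.00534), and below LIF+PD, with a change of -1.48 (adjusted p = 0.000183).

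Epha2, the most abundant EphA receptor, ranged from 22.4 to 50.1 and passed no comparison. Its change against 2i+LIF was 0.19 in 2i, -0.27 in LIF+PD and 0.25 in CH+LIF, each with an SE of 0.28, against an SE of 0.10 for Ephb4, so that a smaller change could be called for the latter. Epha7 was at 1.56 and 0.633 in 2i+LIF, 2.26 and 1.60 in 2i, 0.494 and 0.442 in LIF+PD, and 2.17 and 1.65 in CH+LIF. The LIF+PD cultures were below all others. Epha7 was called in 2 comparisons, with a change of -0.99 for LIF+PD against 2i (adjusted p = 0.0273) and of 0.98 for CH+LIF against LIF+PD (adjusted p = 0.0244). Epha3, Epha5, Epha6, Epha8 and Epha10 reached at most 0.243, and Epha6 was at 0 in every culture.

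The EphB receptors as a family were highest in 2i+LIF. Their summed FPKM was 57.5 and 62.2 in 2i+LIF, 37.6 and 34 in 2i, 37.9 and 37.3 in LIF+PD, and 34.2 and 36.5 in CH+LIF, and no culture of the other media reached 40. Ephb3 and Ephb4 carried this difference. Ephb3, an ephrin-B receptor known for the sorting of epithelial cells in the gut crypt, was at 21.2 and 24.1 in 2i+LIF, 7.12 and 5.46 in 2i, 9.74 and 9.90 in LIF+PD, and 13.2 and 15.9 in CH+LIF. Its 4 media did not overlap, with 2i lowest. It fell by 1.70 ± 0.15 (SE) in 2i (adjusted p = 0.000607), by 1.13 ± 0.15 in LIF+PD (adjusted p = 0.00233) and by 0.61 ± 0.15 in CH+LIF (adjusted p = 0.0251). As a ratio of mean FPKM, the fall was 3.60-fold, 2.31-fold and 1.56-fold.

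Ephb4, the receptor of ephrin-B2 known from the boundary between arteries and veins, was at 31.1 and 32.9 in 2i+LIF, 25.1 and 24.2 in 2i, 22.8 and 19.5 in LIF+PD, and 17.6 and 16.7 in CH+LIF. Here CH+LIF was lowest, and again no other medium overlapped with 2i+LIF. Ephb4 fell by 0.36 ± 0.10 (SE) in 2i (adjusted p = 0.0457), by 0.58 in LIF+PD (adjusted p = 0.00689) and by 0.86 in CH+LIF (adjusted p = 0.00189). Ephb3 and Ephb4 were the 2 members called in all 3 comparisons with 2i+LIF. With every culture brought to the same sum (TPM, described below), neither was called in all 3. Ephb4 was then not called in 2i (limma, adjusted p = 0.106), nor Ephb3 in CH+LIF (limma, adjusted p = 0.0867). The order of Ephb3 and Ephb4 among the 3 reduced media differed. Ephb3 was higher in CH+LIF than in 2i by 1.09 (adjusted p = 0.00308), and Ephb4 was lower there than in 2i, with a change of -0.50 (adjusted p = 0.0133). Ephb2 ranged from 1.79 to 4.33 and was not called. Ephb6, which lacks kinase activity, was at 2.36 and 2.73 in 2i+LIF, 3.56 and 1.66 in 2i, 0.725 and 4.81 in LIF+PD, and 0.496 and 0.583 in CH+LIF. The 2 LIF+PD cultures were its extremes outside CH+LIF, the deposited bounds of its value in replicate 2 of LIF+PD were 2.25 and 7.37, and it was not called. Ephb1 reached 0.391.

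**Figure D2:**
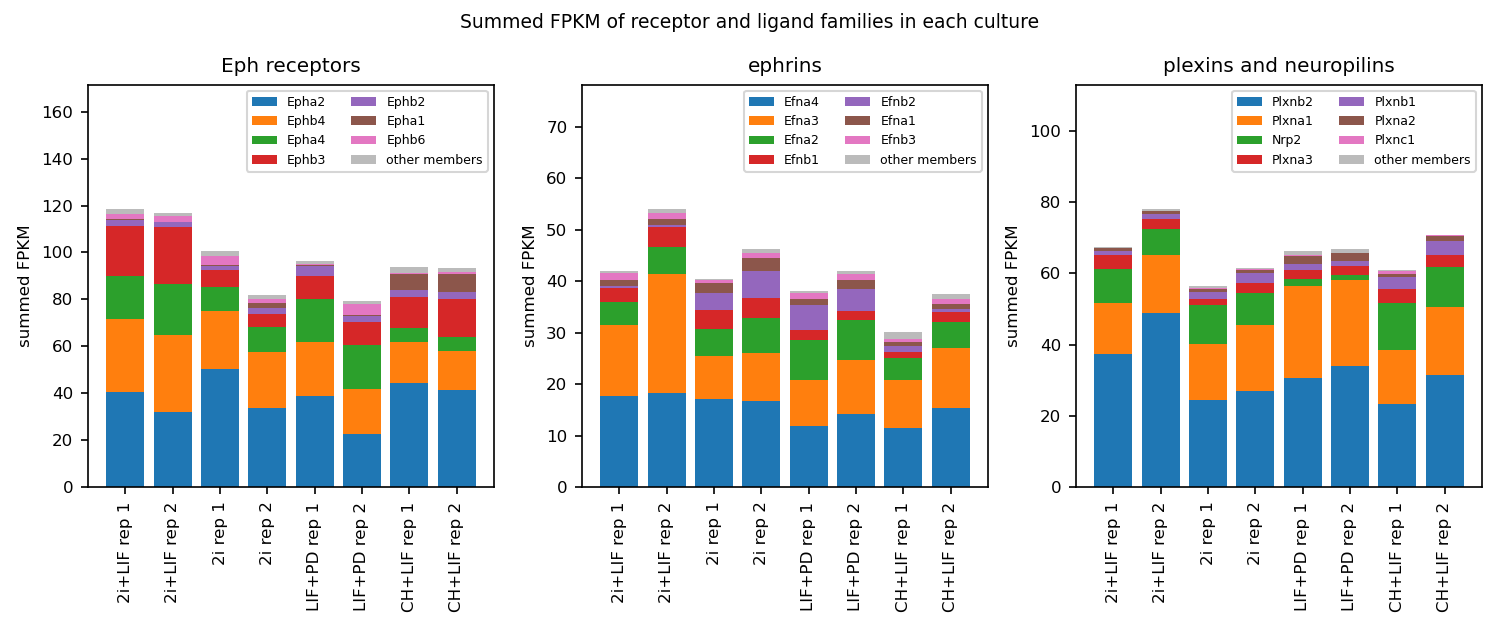
Summed FPKM (bars from 0) of Eph receptors, ephrins, and plexins with neuropilins in each culture, split by gene. The Ephb3 and Ephb4 segments are tallest in 2i+LIF, the Epha1 segment is visible mainly in CH+LIF, and the Nrp2 segment is thin in LIF+PD.

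Among the ligands, Efnb2, the transmembrane ephrin-B2 that binds EphB receptors and Epha4, had the largest rise. Its FPKM was 0.497 and 0.363 in 2i+LIF, 3.33 and 5.21 in 2i, 4.77 and 4.26 in LIF+PD, and 1.14 and 0.714 in CH+LIF. The 2 media with PD and without either LIF or CH were high and overlapped with each other. Mean FPKM was 9.94-fold that of 2i+LIF in 2i and 10.5-fold in LIF+PD. These ratios are uncertain, as the deposited bounds in 2i+LIF were 0.194 and 1.01 in replicate 1 and 0.0788 and 0.87 in replicate 2. On the log2 scale the rise was 1.86 ± 0.21 (SE) in 2i (adjusted p = 0.00181) and 1.95 ± 0.21 in LIF+PD (adjusted p = 0.00109). In CH+LIF the change was 0.42 ± 0.21 (adjusted p = 0.192), and CH+LIF was below both 2i (-1.44, adjusted p = 0.00443) and LIF+PD (-1.52, adjusted p = 0.00234). Ephb3, which binds this ligand, was lowest in the same 2 media.

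Efnb1, another EphB ligand, was at 2.71 and 3.75 in 2i+LIF, 3.68 and 3.91 in 2i, 1.98 and 1.81 in LIF+PD, and 1.14 and 1.80 in CH+LIF. It fell by 0.78 ± 0.19 (SE) in CH+LIF (adjusted p = 0.0257), and the change in LIF+PD was -0.54 ± 0.19 (adjusted p = 0.0809). Against 2i both media were lower, by changes of -0.97 in CH+LIF (adjusted p = 0.0124) and -0.73 in LIF+PD (adjusted p = 0.0308). Efnb3 ranged from 0.539 to 1.38 and was not called.

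The ephrin-A ligands were led by Efna3 and Efna4. Efna3 was at 13.7 and 23.0 in 2i+LIF, 8.19 and 9.17 in 2i, 9.03 and 10.5 in LIF+PD, and 9.38 and 11.7 in CH+LIF. Its 2i+LIF cultures were the highest and also the farthest apart. The change was -0.96 ± 0.23 (SE) in 2i (adjusted p = 0.0294), -0.81 in LIF+PD (adjusted p = 0.042) and -0.71 in CH+LIF (adjusted p = 0.0618). Efna3 shares 14.1% of its exon bases with the antisense gene Gm15998, which was itself at 1.34 or less. Gm15998 was at 0.817 and 1.34 in 2i+LIF and at 0.607 or less in the other media, so both genes were highest in replicate 2 of 2i+LIF. The part of this overlap in the Efna3 values was not tested. Efna2 was at 4.49 and 5.36 in 2i+LIF, 5.38 and 6.88 in 2i, 7.76 and 7.69 in LIF+PD, and 4.29 and 5.12 in CH+LIF, and it rose by 0.56 ± 0.16 in LIF+PD (adjusted p = 0.0372). Efna4 ranged from 11.4 to 18.4 and was not called. Efna1 ranged from 0.827 to 2.46 and was called only between CH+LIF and 2i, where it was lower by a change of -0.79 (adjusted p = 0.0203). The Efna5 entries reached 0.932 and 0.649, and since they overlap in the genome their split is uncertain.

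Among the semaphorins, Sema3b, Sema6c and Sema7a fell in 2i and were lowest there. Sema3b, a secreted semaphorin, was at 3.27 and 3.85 in 2i+LIF, 0.668 and 0.930 in 2i, 1.93 and 2.81 in LIF+PD, and 2.07 and 2.52 in CH+LIF. The 2i cultures were below all others, and Sema3b fell there by 1.34 ± 0.19 (SE, adjusted p = 0.00392), or 4.45-fold in mean FPKM. Sema6c, a transmembrane semaphorin, was at 10.2 and 14.3 in 2i+LIF, 5.44 and 4.37 in 2i, 10.7 and 12.3 in LIF+PD, and 7.97 and 9.72 in CH+LIF, and it fell by 1.16 ± 0.19 in 2i (adjusted p = 0.00682). Sema7a, which is anchored by a lipid, was at 0.346 and 0.297 in 2i and between 1.12 and 1.38 in the other 6 cultures. It fell by 0.71 in 2i (adjusted p = 0.0211). All 3 were also lower in 2i than in LIF+PD and CH+LIF, with adjusted p between 0.00639 and 0.03, so the media that kept LIF had the higher levels.

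The class 4 semaphorins, transmembrane ligands that bind mainly plexin-B receptors, did not move together. Sema4b, the most abundant semaphorin, was at 47.4 and 49.6 in 2i+LIF, 40.3 and 40.4 in 2i, 44.3 and 47.3 in LIF+PD, and 28.4 and 35.4 in CH+LIF. It fell in CH+LIF by 0.60 ± 0.11 (SE, adjusted p = 0.00988). Sema4c was at 1.07 and 1.18 in 2i+LIF, 2.79 and 5.13 in 2i, 2.19 and 2.05 in LIF+PD, and 0.757 and 0.640 in CH+LIF. It rose in 2i by 1.18 ± 0.23 (adjusted p = 0.0139), and its 4 media did not overlap, with 2i highest and CH+LIF lowest. CH+LIF was below 2i by a change of -1.51 (adjusted p = 0.00489) and below LIF+PD by one of -0.88 (adjusted p = 0.0278). Sema4c shares 7.27% of its exon bases with D430040D24Rik, which was itself at 1.19 or less and highest in replicate 2 of 2i, as Sema4c was. The part of this overlap was not tested. Sema4a was at 2.56 and 3.02 in 2i+LIF, 2.06 and 1.26 in 2i, 6.43 and 4.92 in LIF+PD, and 4.11 and 5.43 in CH+LIF, and it rose in LIF+PD by 0.81 ± 0.21 (adjusted p = 0.0316). It too was lowest in 2i without overlap, below LIF+PD by 1.33 (adjusted p = 0.00458) and below CH+LIF by 1.12 (adjusted p = 0.0106), while its change in 2i against 2i+LIF was -0.53 (adjusted p = 0.133).

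Sema4d, the best known plexin-B1 ligand, was at 8.02 and 6.87 in 2i+LIF, 8.19 and 8.18 in 2i, 11.7 and 10.3 in LIF+PD, and 7.14 and 6.99 in CH+LIF. Only the LIF+PD cultures were above 10, a rise of 0.51 ± 0.12 (SE, adjusted p = 0.0205). Sema4f was highest in 2i+LIF, at 3.85 and 2.24, against 1.48 and 1.07 in 2i, 0.824 and 0.584 in LIF+PD, and 1.83 and 1.71 in CH+LIF. It fell by 0.81 ± 0.23 in 2i (adjusted p = 0.0479) and by 1.22 ± 0.23 in LIF+PD (adjusted p = 0.00885). Sema4g was at 2.33 and 2.57 in 2i+LIF, 1.57 and 1.42 in 2i, 1.72 and 1.35 in LIF+PD, and 1.41 and 1.27 in CH+LIF, and it fell by 0.56 ± 0.15 in CH+LIF (adjusted p = 0.0362). All 6 measured class 4 genes passed the filter.

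Sema6b, a transmembrane semaphorin, reached an FPKM of 2 only in LIF+PD. It was at 2.01 and 2.54 there and at most 0.643 in the other 6 cultures, with 0.302 and 0.643 in 2i+LIF, 0.353 and 0.364 in 2i, and 0.540 and 0.449 in CH+LIF. It rose in LIF+PD by 1.16 ± 0.19 (SE, adjusted p = 0.00536), or 4.81-fold in mean FPKM. Sema5b was at 6.19 and 4.88 in 2i+LIF, 5.07 and 1.69 in 2i, 7.09 and 7.49 in LIF+PD, and 10.6 and 10.9 in CH+LIF, and was called only for CH+LIF against 2i, with a change of 1.54 (adjusted p = 0.0183). Sema3f ranged from 0.280 to 1.56 and Sema6a from 0.408 to 1.16, and neither was called. Of the members below the filter, Sema3c reached 2.09 and Sema3e 1.03, each in 1 culture only, while Sema3a, Sema3d, Sema3g, Sema5a and Sema6d reached at most 0.420.

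Among the receptors of semaphorins, the neuropilin Nrp2, a co-receptor of class 3 semaphorins and of VEGF ligands, showed the largest fall. Its FPKM was 9.55 and 7.29 in 2i+LIF, 10.8 and 9.22 in 2i, 13.2 and 11.2 in CH+LIF, and 1.86 and 1.40 in LIF+PD. The 6 cultures with CH were all above 7 and those without it below 2. In LIF+PD Nrp2 fell by 1.84 ± 0.17 (SE) on the log2 scale (adjusted p = 0.000581), or 5.18-fold in mean FPKM. The change against 2i was -2.07 (adjusted p = 0.000327), and CH+LIF was above LIF+PD by 2.33 (adjusted p = 0.00018). The changes against 2i+LIF were 0.23 ± 0.17 in 2i (adjusted p = 0.392) and 0.49 ± 0.17 in CH+LIF (adjusted p = 0.0777). Nrp1, the other neuropilin, reached only 0.171, so that Nrp2 made up nearly the whole neuropilin level.

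The plexins carry the signal of semaphorins into the cell. Plxna1 was at 14.4 and 16.2 in 2i+LIF, 15.8 and 18.4 in 2i, 25.9 and 24.3 in LIF+PD, and 15.1 and 19.3 in CH+LIF, and it rose by 0.68 ± 0.14 (SE) in LIF+PD (adjusted p = 0.0136). It shares 10.7% of its exon bases with Gm26811, which was at 0.0695 or less in every culture. Plxna2 was at 0.877 and 0.831 in 2i+LIF, 0.847 and 0.965 in 2i, 2.15 and 2.03 in LIF+PD, and 1.01 and 1.25 in CH+LIF, and it rose by 0.73 ± 0.15 in LIF+PD (adjusted p = 0.0142). In both genes the LIF+PD cultures were above all others. Plxna1 and Plxna2 thus rose in the medium in which Nrp2, the co-receptor of A-type plexins, fell. Plxnb1, the receptor of Sema4d, was at 0.930 and 1.49 in 2i+LIF, 1.89 and 2.67 in 2i, 1.66 and 1.68 in LIF+PD, and 3.31 and 4.11 in CH+LIF, and it rose by 1.10 ± 0.20 in CH+LIF (adjusted p = 0.00851). Plxnb2, the most abundant plexin, was at 37.3 and 48.9 in 2i+LIF, 24.5 and 27.1 in 2i, 30.6 and 33.9 in LIF+PD, and 23.3 and 31.3 in CH+LIF. It fell by 0.71 ± 0.17 in 2i (adjusted p = 0.0314) and by 0.64 ± 0.17 in CH+LIF (adjusted p = 0.0353). Plxna3 ranged from 1.93 to 4.08 without a call, and Plxna4, Plxnb3, Plxnc1 and Plxnd1 reached at most 0.873.

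**Figure D3:**
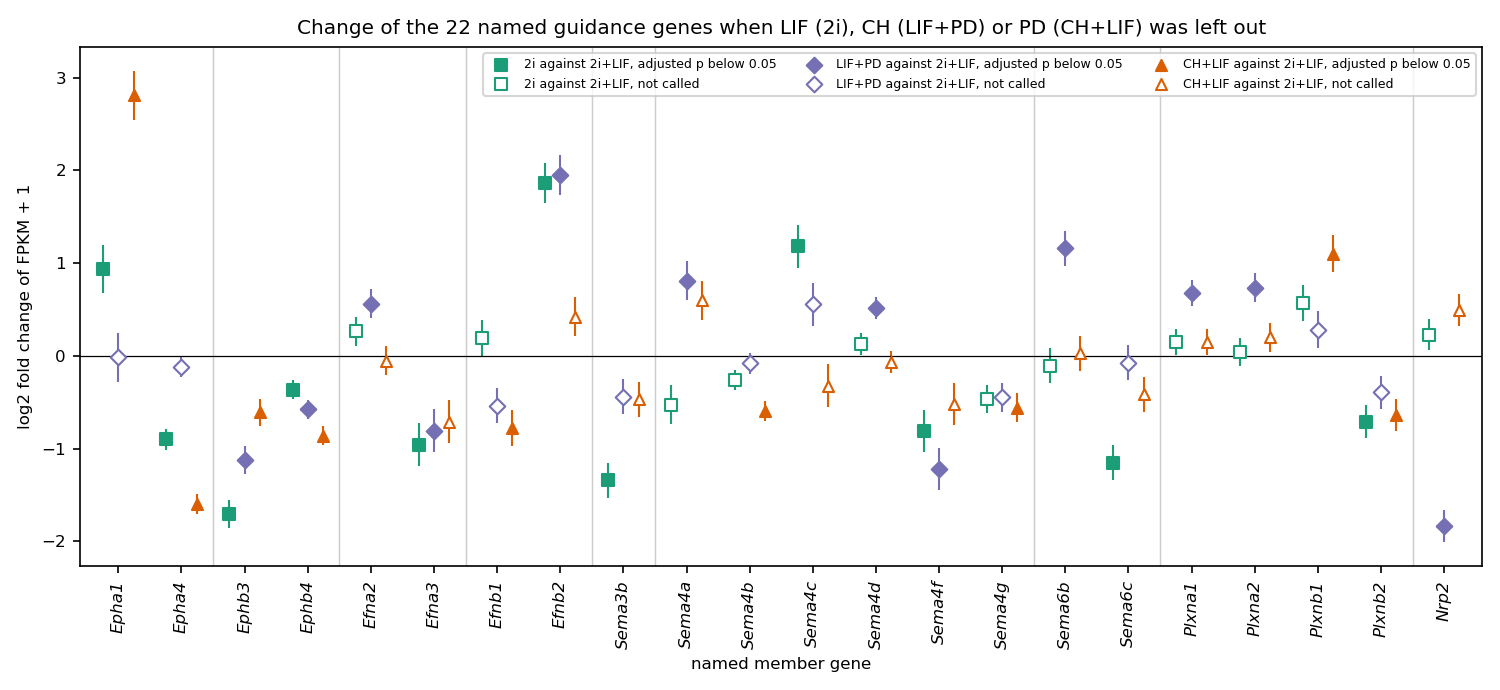
Change on the log2(FPKM + 1) scale (points, with bars of 1 SE from limma) of the 22 named members in each reduced medium against 2i+LIF, with filled points for an adjusted p below 0.05. Ephb3 and Ephb4 are filled and below 0 in all 3 comparisons, while Efnb2 is filled and above 0 in 2i and LIF+PD, and Epha1 and Nrp2 hold the extremes.

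The 3 comparisons with 2i+LIF share its 2 cultures, so their values are set side by side and not correlated. Without LIF (2i against 2i+LIF), 3 of the 34 tested members rose and 9 fell. Efnb2, Sema4c and Epha1 rose, and Ephb3, Sema3b, Sema6c, Efna3, Epha4, Sema4f, Sema7a, Plxnb2 and Ephb4 fell. Among all genes tested, 9.77% were called higher and 8.86% lower, against 8.82% and 26.5% of the members. The median change was -0.08 over the members and 0.04 over all genes, and the median size of the change was 0.44 and 0.24. The median size was also larger over the members in each of the other comparisons, at 0.433 to 0.509 against 0.268 to 0.295 over all genes. Efnb2, Ephb3, Epha4, Sema3b and Sema6c stayed called whichever culture was left out, with an adjusted p of at most 0.0406. The other calls depended on single cultures. Sema4c was lost without either 2i+LIF culture (adjusted p = 0.065 and 0.0735), Efna3 without replicate 2 of 2i+LIF or either 2i culture (0.0779 to 0.115), and Sema7a without any 1 of the 2i+LIF and 2i cultures (0.0535 to 0.0992). Plxnb2 was lost without replicate 2 of 2i+LIF or any 2i or LIF+PD culture (0.0508 to 0.152), and Ephb4 without any 2i+LIF, 2i or CH+LIF culture (0.0677 to 0.188). Epha1 was lost without any culture other than replicate 1 of 2i (0.0756 to 0.167), and Sema4f without any other than replicate 2 of 2i+LIF (0.0687 to 0.213). Without replicate 1 of 2i, the shallowest library, 3 members were called higher and 5 lower. Without replicate 2 of 2i, 4 were called lower, without replicate 2 of 2i+LIF 5 were, and without either 2i+LIF culture 1 was called higher. In the same comparison the markers Thy1, Pax6, Otx2 and Eomes rose and Kdr and Krt8 fell, and their part was not tested.

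Without CH (LIF+PD against 2i+LIF), 7 members rose and 5 fell. Efnb2, Sema6b, Sema4a, Plxna2, Plxna1, Efna2 and Sema4d rose, and Nrp2, Sema4f, Ephb3, Efna3 and Ephb4 fell. This is 20.6% and 14.7% of the members, where 14.8% of all genes were called higher and 10.4% lower. The median change was -0.04 over the members and 0.03 over all genes. Efnb2, Sema6b, Nrp2, Ephb3 and Ephb4 stayed called without any single culture, with an adjusted p of at most 0.049. Sema4f was lost without replicate 2 of LIF+PD (adjusted p = 0.0526), Sema4d without replicate 2 of 2i+LIF or replicate 1 of LIF+PD (0.11 and 0.112), and Plxna1 without replicate 1 of 2i+LIF or either LIF+PD culture (0.0513 to 0.0818). Plxna2 (0.0574 to 0.0725), Sema4a (0.0579 to 0.156) and Efna2 (0.0723 to 0.175) were lost without any of the 2i+LIF or LIF+PD cultures, and Efna3 without any culture other than replicate 1 of 2i+LIF (0.0572 to 0.172). The count of members called higher was 3 without either 2i+LIF culture, 2 without replicate 1 and 3 without replicate 2 of LIF+PD, and without the latter 3 were called lower. The markers Nes, Pax6, Tek, Gata3, Krt18, Thy1, Otx2 and Pou3f1 rose here and Cdx2 and T fell. Their part was not tested.

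Without PD (CH+LIF against 2i+LIF), 2 members rose and 7 fell. Epha1 and Plxnb1 rose, and Epha4, Ephb4, Efnb1, Plxnb2, Ephb3, Sema4b and Sema4g fell. These are 5.88% and 20.6% of the members, beside 12.2% of all genes called higher and 13.3% lower. The balance depended on the scale. With size factors, which scale each culture by its median ratio to the gene means, it stayed at 2 higher and 7 lower. When every culture was brought to the same sum, as TPM (a share of all transcripts), 6 members were called higher and 2 lower. Epha1, Plxnb1, Nrp2, Sema3f, Sema4a and Sema5b were then the higher ones, and Epha4 and Ephb4 the lower ones. That scale moved the median change of all genes from 0.01 to 0.18 in this comparison, from 0.03 to 0.15 without CH and from 0.04 to 0.09 without LIF. Epha1, Epha4 and Ephb4 stayed called without any single culture (adjusted p of at most 0.0192). Ephb3 was lost without either 2i+LIF culture or replicate 1 of CH+LIF (0.0645 to 0.136), Efnb1 without replicate 2 of 2i+LIF or replicate 1 of CH+LIF (0.134 and 0.135), and Sema4b without replicate 2 of 2i+LIF (0.0586). Plxnb1 was lost without replicate 1 of 2i+LIF or replicate 2 of CH+LIF (0.0506 and 0.0528), Sema4g without any 2i+LIF or CH+LIF culture (0.105 to 0.156), and Plxnb2 without replicate 2 of 2i+LIF, replicate 2 of 2i, replicate 1 of CH+LIF or either LIF+PD culture (0.0501 to 0.175). The count of members called lower was 2 without replicate 2 of 2i+LIF and 3 without replicate 1 of CH+LIF, and 1 member was called higher without replicate 1 of 2i+LIF or replicate 2 of CH+LIF. The markers Eomes, T, Krt18, Thy1 and Dnmt3b rose here and Nes and Cdx2 fell. Their part was not tested.

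CH+LIF and LIF+PD both hold LIF and differ in which inhibitor goes with it. Here 5 members were higher in CH+LIF, where 12.6% of all genes were, and 9 were lower, where 17.8% of all genes were. This is 14.7% and 26.5% of the members. Epha1, Nrp2, Epha7, Plxnb1 and Ephb3 were higher in CH+LIF. Efnb2, Epha4, Sema6b, Sema4c, Efna2, Sema4d, Plxna2, Plxna1 and Sema4b were lower. On the TPM scale 6 were higher and 5 lower. Epha1, Nrp2, Efnb2, Epha4 and Sema6b stayed called without any single culture, with an adjusted p of at most 0.0341. The calls of Epha7, Plxnb1 and Sema4c were lost without any CH+LIF or LIF+PD culture (adjusted p 0.052 to 0.127). Those of Efna2 and Plxna1 were lost without replicate 1 of CH+LIF or either LIF+PD culture (0.0818 to 0.143), that of Sema4d without either CH+LIF culture or replicate 1 of LIF+PD (0.0507 to 0.0695), and that of Sema4b without replicate 1 of CH+LIF or replicate 2 of LIF+PD (0.0568 and 0.0742). Those of Ephb3 and Plxna2 were lost without any 2i+LIF, CH+LIF or LIF+PD culture (0.0556 to 0.174). Without a single CH+LIF or LIF+PD culture, 2 members were called higher and 3 to 6 lower.

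**Figure D4:**
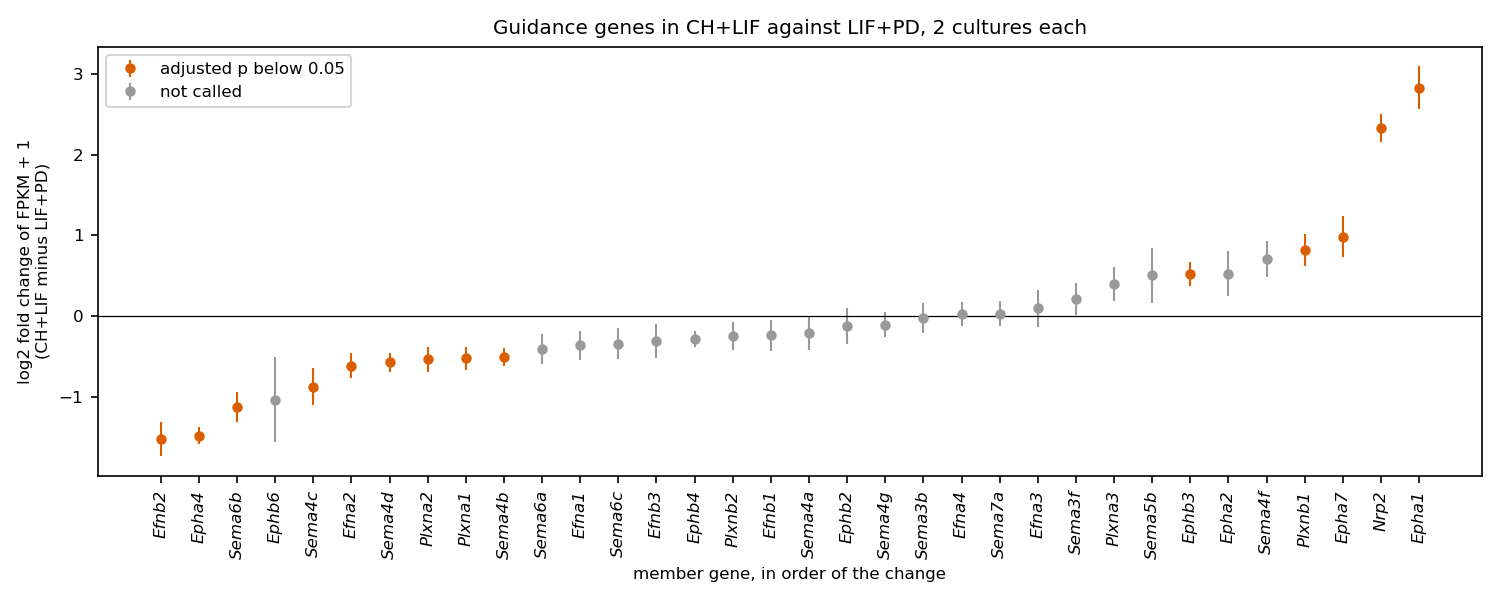
Change on the log2(FPKM + 1) scale of CH+LIF against LIF+PD (points, with bars of 1 SE from limma, 2 cultures each) for the 34 tested members in the order of the change, coloured where the adjusted p is below 0.05. Epha1 (2.83) and Nrp2 (2.33) stand at one end, and Efnb2 (-1.52) and Epha4 (-1.48) at the other.

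The comparisons with 2i share its 2 cultures, so their values are given side by side only. In LIF+PD against 2i, 9 members were higher and 4 lower, beside 14.0% and 11.1% of all genes, and on the TPM scale 10 were higher and 2 lower. Sema4a, Sema6b, Sema6c, Sema3b, Epha4, Sema7a, Plxna2, Ephb3 and Plxna1 were higher in LIF+PD, and Nrp2, Epha7, Epha1 and Efnb1 lower. In CH+LIF against 2i, 7 were higher and 6 lower, beside 10.6% and 13.3% of all genes. Epha1, Sema5b, Sema4a, Ephb3, Sema3b, Sema7a and Sema6c were higher in CH+LIF, and Sema4c, Efnb2, Efnb1, Efna1, Epha4 and Ephb4 lower. In LIF+PD against 2i, Nrp2, Epha4, Sema4a, Sema6b and Sema6c stayed called without any single culture, with an adjusted p of at most 0.0446. Sema7a was lost without replicate 1 of LIF+PD (0.0693) and Sema3b without replicate 1 of 2i or replicate 2 of LIF+PD (0.066 and 0.077). Epha7, Plxna1 and Plxna2 were lost without replicate 1 of 2i or either LIF+PD culture (0.0626 to 0.144), Ephb3 without replicate 2 of 2i or either LIF+PD culture (0.102 to 0.115), and Efnb1 without any 2i or LIF+PD culture (0.0896 to 0.125). Epha1 was lost without any culture other than replicate 1 of 2i (0.0618 to 0.132). This left 5 members higher and 1 lower without either LIF+PD culture, and 2 lower without replicate 2 of 2i.

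In CH+LIF against 2i, Epha1, Ephb3, Epha4, Efnb2 and Sema4c stayed called without any single culture, with an adjusted p of at most 0.0349. Sema4a was lost without replicate 2 of CH+LIF (0.0617), Sema5b and Sema7a without either CH+LIF culture (0.0552 to 0.0784), and Efnb1 without replicate 2 of 2i or replicate 1 of CH+LIF (0.0507 and 0.0686). Sema3b and Ephb4 were lost without replicate 1 of 2i or either CH+LIF culture (0.052 to 0.0873), Efna1 without replicate 2 of 2i or either CH+LIF culture (0.077 to 0.0841), and Sema6c without any 2i or CH+LIF culture (0.0559 to 0.135). This left 3 members higher and 3 lower without replicate 1 of CH+LIF, and 2 higher and 5 lower without replicate 2.

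Over all 4 media, the moderated F test called 25 of the 34 members (73.5%), where 46.8% of all genes tested were called. The 9 members without a call in it were Epha2, Ephb2, Ephb6, Efna4, Efnb3, Sema3f, Sema4g, Sema6a and Plxna3.

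Guidance receptors act with partners inside the cell and at its surface. A list of 32 of them (33 entries, of which 27 passed the filter) was read in the same fit. In 2i 3 rose and 3 fell, in LIF+PD 8 rose and 4 fell, and in CH+LIF 5 rose and 5 fell, each against 2i+LIF. The falls in each medium include Mical3, which is listed under separate identifiers. A single entry of it fell, with changes of -1.03 in 2i, -0.91 in LIF+PD and -0.65 in CH+LIF. Its other entry was not called, with changes of -0.40, 0.01 and 0.18 in the same order. Of all genes tested, 9.77%, 14.8% and 12.2% were called higher and 8.86%, 10.4% and 13.3% lower in these 3 comparisons, so that the counts in 2i are near that share. Crmp1 and Dpysl3, collapsin response mediator proteins that relay semaphorin signals to the cytoskeleton, had the largest changes of the list. Crmp1 was at 1.38 and 1.77 in 2i+LIF, 3.56 and 4.79 in 2i, 13.1 and 11.5 in CH+LIF, and 40.3 and 36.3 in LIF+PD. It rose by 1.00 ± 0.16 (SE) in 2i, by 2.37 in CH+LIF and by 3.93 in LIF+PD (adjusted p = 0.00595, 0.000361 and 3.24e-05). Dpysl3 was at 2.35 and 3.10 in 2i+LIF and 49.5 and 48.8 in LIF+PD, and it rose by 3.76 there (adjusted p = 2.23e-05). Both genes were higher in each reduced medium without overlap. Dpysl5 fell in 2i by 1.18 (adjusted p = 0.00365) and rose in CH+LIF by 0.66 (adjusted p = 0.0262), and Dpysl4 rose in LIF+PD by 2.01 (adjusted p = 0.00066) and fell in CH+LIF by 0.73 (adjusted p = 0.033). Chn1, which encodes a Rac GTPase-activating protein acting below Epha4, rose in all 3 media, with changes of 0.85, 1.38 and 0.57 in 2i, LIF+PD and CH+LIF (adjusted p = 0.0111, 0.00121 and 0.0373). The kinase Fyn rose in LIF+PD and CH+LIF by 1.07 and 1.24, and the plexin-binding exchange factor Farp1 fell in them, with changes of -0.92 and -0.97. Tiam1, a Rac exchange factor bound by Eph receptors, fell only in 2i among these comparisons, by 1.30 (adjusted p = 0.00303).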

How the data were processed

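RNA-seq was performed on 8 cultures of a mouse ESC line, 2 in each of 4 media. The authors aligned single-end reads to mm10 with TopHat2 and Ensembl annotation and deposited an FPKM for every gene of each culture, together with its confidence bounds. Cufflinks and Cuffdiff are named in the submitters' processing notes without a role. The methods state rRNA depletion, whereas the sample records state polyA RNA. FPKM depends on the library total and transcript length used, and read counts are not given, so no counting error is stated.

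Groups were taken from the sample titles. Repeated identifiers were summed, so that 39013 rows gave 38991 genes. Values were transformed as log2(FPKM + 1), and genes that reached an FPKM of 1 in 2 or more cultures were fitted with limma 3.58.1 in R 4.3.3 (trended empirical Bayes, 1 fit of 8 cultures, 4 residual degrees of freedom, two-sided), with Benjamini-Hochberg adjustment over 12927 genes in each comparison and a threshold of 0.05. The fit was tested on simulated data with normal noise, in which 200 of 12927 genes were shifted in 2i. It recovered 71% of shifts of 1 and 97% of shifts of 2 on the log2 scale. Of its calls, 4.5% were of unchanged genes. Shifts below 1 were not simulated, so a member without a call may still have changed. Relative depth came from the most frequent ratio of FPKM values below 0.5 in all cultures. Named members had a call against 2i+LIF and a mean FPKM of at least 2 in 1 medium, which gave 22. Sema7a, Epha7, Epha2, Ephb6, Sema5b and Efna1 were added after their values were seen. Members and gene lists were chosen with earlier results of these data known. Alternatives were other pseudocounts (0.1 and 5), filters, scales (TPM, size factors) and fits, a replicate block, and leaving out each culture.

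The lists of other guidance families, signalling readouts and cell markers (pluripotent, neural, mesendoderm and endoderm, trophectoderm, fibroblast, endothelial and blood, primed or formative epiblast) were read in the same fit. Tubb3 was not analysed here, and 1 further neural marker is not reported here. Python 3.11.15, numpy 2.4.6, pandas 2.3.3 and matplotlib 3.10.9 were used.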

Additional observations from a re-analysis of the deposited data

How the results depend on the processing

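No named member's call changed direction under any of the 17 alternatives, and 28 of the 66 calls of named members over the 6 comparisons were kept in all of them. Fits of only the 2 media compared gave 1 member higher, 4 lower and 1500 genes in all for 2i against 2i+LIF, and 1808 genes in all for CH+LIF against 2i. Without a filter, 5 members were lower in 2i and 4 in CH+LIF against 2i+LIF, and 1 was lower in LIF+PD against 2i. On the TPM scale 6 members were higher and 2 lower in CH+LIF against 2i+LIF, 2 were lower in LIF+PD against 2i, and 5 were lower in CH+LIF against LIF+PD. The cause was not tested. Leaving out each culture in turn gave, for members called higher, members called lower and all genes called, 1 to 3, 4 to 7 and 1167 to 2141 (2i against 2i+LIF), 2 to 8, 3 to 5 and 1687 to 3342 (LIF+PD against 2i+LIF), 1 to 3, 2 to 7 and 1520 to 3330 (CH+LIF against 2i+LIF), 5 to 9, 1 to 3 and 1970.0 to 2966 (LIF+PD against 2i), 2 to 7, 3 to 7 and 1494 to 2705 (CH+LIF against 2i), and 2 to 6, 3 to 9 and 2311 to 3991 (CH+LIF against LIF+PD). The F test called 17 to 22 members. A medium reduced to 1 culture was assumed to vary like the others. The main fit took same-numbered cultures as unpaired, and the labels do not say whether they belong together. The correlation of their deviations was -0.03 to 0.09, which cannot show that they are unpaired. With a replicate block, the counts of members called higher and lower were 3 and 9, 7 and 7, 3 and 8, 10 and 4, 7 and 7, and 5 and 9 in the same order, and 1 of the 66 calls was lost (Ephb3 in CH+LIF against LIF+PD). The block gave 2547, 3470, 3519, 3467, 3338 and 4105 calls over all genes, where the main fit gave 2408, 3263, 3286, 3242, 3089 and 3928. With 2 cultures a medium, changes of members below an FPKM of about 2 are uncertain, and how many reads they rest on is not known.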

Other observations

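Other guidance families were read in the same fit. Of 27 entries for slits, netrins, repulsive guidance molecules, Flrt proteins, Draxin and the receptors of these cues, 11 passed the filter. Against 2i+LIF, 1 rose and 2 fell in 2i, 6 fell in LIF+PD, and 2 rose and 5 fell in CH+LIF. Among all genes tested, 9.77% were called higher and 8.86% lower in 2i, 10.4% lower in LIF+PD, and 12.2% higher and 13.3% lower in CH+LIF. Ntn1, which encodes the secreted cue netrin-1, was at an FPKM of 38.0 and 34.7 in 2i+LIF, 25.4 and 31.3 in 2i, 61.5 and 67.3 in CH+LIF, and 0.979 and 0.983 in LIF+PD. It fell in LIF+PD by 4.24 ± 0.12 (SE) on the log2(FPKM + 1) scale (adjusted p = 8.4e-06) and rose in CH+LIF by 0.81 (adjusted p = 0.00458). Like Nrp2, it was low only in the medium without CH. Its receptor Neo1 was at 15 and 16.7 in 2i+LIF, 9.25 and 8.37 in LIF+PD, and 11.1 and 11.3 in CH+LIF. Neo1 fell in LIF+PD by 0.78 (limma, adjusted p = 0.00251) and, unlike Ntn1, also in CH+LIF, by 0.46 (adjusted p = 0.0191). Dcc, another receptor of netrin-1, stayed below 0.08 in every culture.

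Rgma, a membrane-anchored ligand of Neo1, was at 22.9 and 24.2 in 2i+LIF, 3.28 and 3.72 in 2i, 8.48 and 10.8 in LIF+PD, and 2.84 and 2.79 in CH+LIF. It fell in the 3 reduced media, with changes of -2.45 ± 0.14 (SE), -1.22 and -2.69 in 2i, LIF+PD and CH+LIF (adjusted p = 0.000115, 0.00119 and 0.000186), so that, like Ephb3 and Ephb4, it was highest in 2i+LIF. Slit2, a secreted repellent, was at 8.04 and 8.83 in 2i+LIF and between 3.09 and 5.04 in the other 6 cultures, and fell in all 3 media, with changes of -1.13, -0.74 and -1.01 in the same order (adjusted p = 0.00411, 0.0165 and 0.00553).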
